A study of Mus musculus with 9 samples.

Results

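Oncostatin M, leukaemia inhibitory factor, their receptor chains, the kinase JAK2, the transcription factor STAT3 and the feedback inhibitors SOCS1 and SOCS3 are encoded by 8 genes, Osm, Lif, Osmr, Lifr, Jak2, Stat3, Socs1 and Socs3, whose mRNA was followed in mouse liver samples. These 8 were taken by gene symbol from the 34745 genes of the table. The 9 liver samples came from male C57BL/6 mice of 6 to 8 weeks and fell into 3 groups of 3: WZB given with D-gal/LPS, D-gal/LPS without WZB, and control. D-gal/LPS usually stands for D-galactosamine with lipopolysaccharide, which together cause acute liver injury. The labels do not expand WZB, and the design text speaks of pretreatment with GLUT1 inhibitors. The sources used here name neither doses nor times, nor what the control mice received. No label states that replicates are separate animals, so a p-value here covers the spread between these libraries and no more.

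Oncostatin M and LIF are cytokines of the interleukin-6 family, released mainly by activated leukocytes and stromal cells. They bind receptor pairs that share the chain gp130, the product of Il6st. In the mouse, oncostatin M signals mainly through OSMR with gp130, and LIF through LIFR with gp130. The receptors activate JAK kinases, which phosphorylate STAT3, and STAT3 in hepatocytes drives acute phase genes and Socs3. SOCS1 and SOCS3 bind JAK kinases or receptors and end the signal. STAT3 is controlled mostly by phosphorylation, which mRNA counts do not measure.

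The libraries held 15072509 to 18106895 counts. Of the table, 13583 genes had enough counts to be tested, all 8 genes among them. Osm, Lif and Socs1 were near 0 in control liver samples and met the minimum through the injured liver samples. Hepatocyte markers summed to 122300 to 132600 CPM with WZB, 95570 to 98360 CPM in D-gal/LPS liver samples and 76310 to 79210 CPM in control liver samples. None of the 6 was at 0. Most of each sum was Alb, with means of 93560, 71910 and 51530 CPM in the same order. Against control, 2 of the 6 markers were higher with D-gal/LPS by edgeR, 1 was lower and 3 were not called. Over all genes tested 29.1% were higher and 29.3% lower in this comparison. The median log2 fold change of the 6 markers was -0.007. CPM are counts scaled with TMM factors to a common library size. In bulk tissue, fewer cells of a type and less RNA per cell cannot be told apart.

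Both ligand genes had no counts in control liver samples and were detected in every injured sample, lower in every sample with WZB than in any D-gal/LPS sample. Osm had 31, 36 and 32 counts in the liver samples with WZB, 109, 83 and 114 counts in the D-gal/LPS liver samples and 0 counts in each of the 3 control liver samples. In CPM these were 2.19, 2.71 and 1.97 with WZB against 6.30, 5.47 and 6.73 without it. The groups did not overlap. A total of 0 in the 3 control libraries allows up to 3 counts, or 0.0577 CPM, for counting error only. Against that limit Osm was at least 107-fold higher in D-gal/LPS liver samples and at least 39.7-fold higher with WZB. Between the injured groups Osm fell with WZB to 37.2% of its D-gal/LPS level (log2 fold change -1.43 ± 0.25, SE, edgeR adjusted p = 0.00155).

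Lif had 39, 58 and 58 counts with WZB, 137 to 198 counts in D-gal/LPS liver samples and 0 counts in the control liver samples. Its level was 2.76, 4.37 and 3.56 CPM with WZB, against 11.1, 9.03 and 11.7 CPM with D-gal/LPS alone. Again the groups stood apart. Lif was at least 184-fold higher than control in D-gal/LPS liver samples and at least 61.8-fold higher with WZB. It fell with WZB to 33.6% of the D-gal/LPS level (log2 fold change -1.58 ± 0.23, edgeR adjusted p = 0.00044). The 2 genes are neighbours on chromosome 11 (GRCm38): Osm lies at 4236420-4241026 and Lif at 4257557-4272514, 16.5 kb apart with 0 other genes of the table between them.

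**Figure D1:**
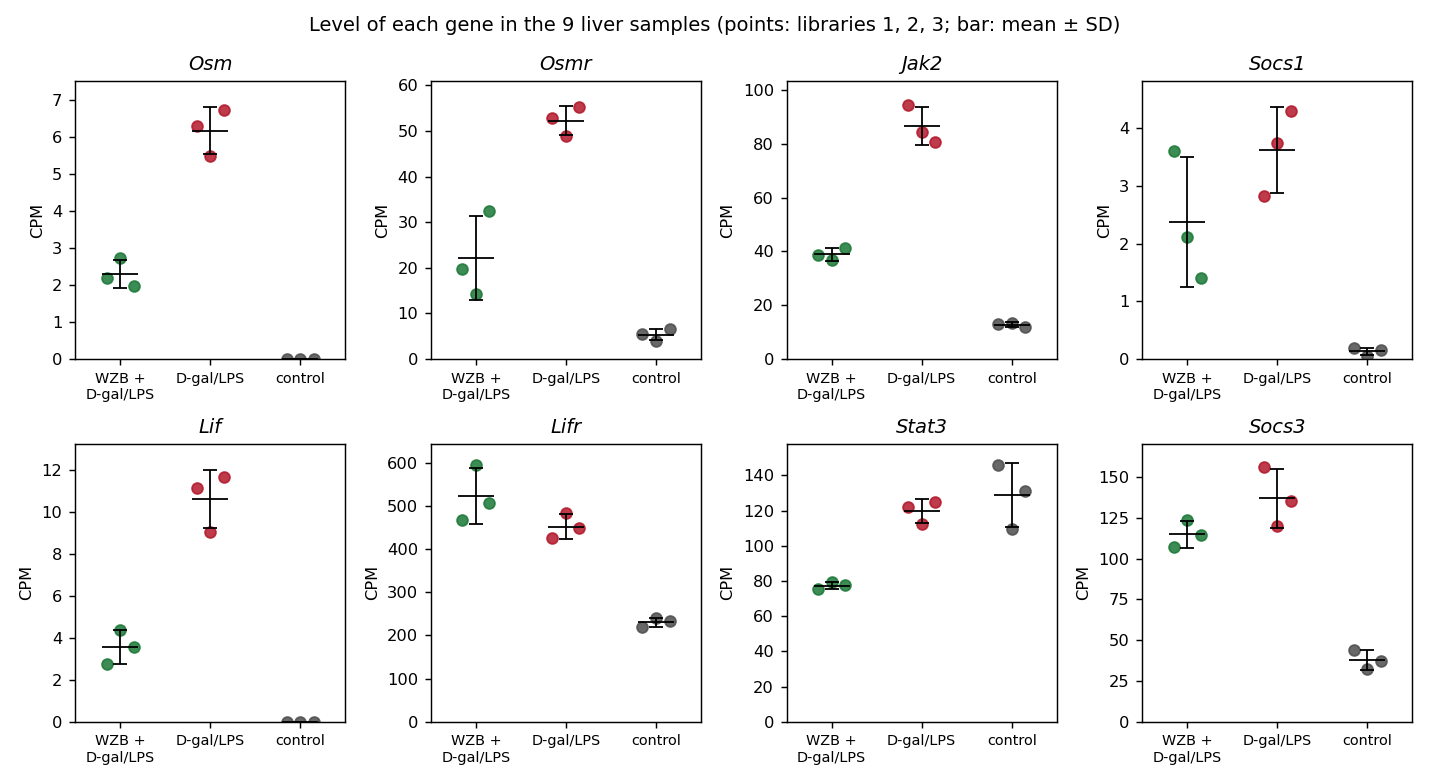
The level of each of the 8 genes is plotted in CPM on linear axes that start at 0, with 1 point per library (1 to 3 from left to right) and the mean ± SD as black bars, for WZB with D-gal/LPS, D-gal/LPS and control liver samples. Osm, Lif, Osmr, Jak2 and Stat3 were lower in all 3 WZB liver samples than in the D-gal/LPS liver samples, while Lifr, Socs1 and Socs3 overlapped.

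The receptor genes split. Osmr, which encodes the chain specific to oncostatin M, rose strongly with D-gal/LPS and fell with WZB, while Lifr rose with D-gal/LPS and did not pass the test between the injured groups. Osmr measured 52.7, 48.9 and 55.2 CPM in D-gal/LPS liver samples and 5.47, 4.04 and 6.57 CPM in control liver samples, without overlap (log2 fold change 3.28 ± 0.31, edgeR adjusted p = 2.33e-05). With WZB it measured 19.7, 14.3 and 32.4 CPM. This was the widest relative spread among the called genes in that group, and replicate 3 stood highest. The mean of 22.2 ± 9.30 CPM (SD, n = 3) was 42.4% of the D-gal/LPS level (log2 fold change -1.23 ± 0.28, edgeR adjusted p = 0.0113). Leaving out 1 library at a time gave log2 fold changes from -1.61 to -1.0, with adjusted p up to 0.0494.

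Lifr, the chain for LIF, measured 468, 595 and 507 CPM with WZB, 425, 483 and 449 CPM in D-gal/LPS liver samples, and 220, 240 and 233 CPM in control liver samples. All 6 injured liver samples lay above all 3 control liver samples. The log2 fold change of D-gal/LPS liver samples against control was 0.97 ± 0.10 (edgeR adjusted p = 1.28e-06). That of liver samples with WZB against control was 1.18 ± 0.10 (edgeR adjusted p = 2.39e-07). Between the injured groups it was 0.21 ± 0.09 (edgeR adjusted p = 0.113), with an interval at 95% before adjustment of 0.01 to 0.41. That difference passed the threshold without replicate 1 of the WZB group (0.29, adjusted p = 0.0448) and with upper quartile scaling (0.28, adjusted p = 0.038). Osmr and Lifr lie 254.6 kb apart on chromosome 15 (6813577-6874969 and 7129559-7197489, GRCm38), with 1 gene of the table between them.

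The balance of the 2 receptor transcripts can be given per gene length and without any scaling between libraries, as the ratio of their deposited FPKM within each library. Lifr exceeded Osmr 28.5, 49.9 and 18.8 times with WZB, 9.69, 11.9 and 9.77 times in D-gal/LPS liver samples, and 48.3, 71.5 and 42.6 times in control liver samples. The D-gal/LPS liver samples thus had the smallest excess of Lifr, apart from both other groups. These ratios were chosen after the values were seen and were not tested. Il6st, the gene of the shared chain gp130, measured 103, 160 and 146 CPM with WZB, 242, 248 and 203 CPM with D-gal/LPS, and 118, 98.3 and 60.6 CPM in control liver samples. It rose with D-gal/LPS (log2 fold change 1.32 ± 0.27, edgeR adjusted p = 0.00406). With WZB the log2 fold change was -0.76 ± 0.27 (edgeR adjusted p = 0.0727), and it passed the threshold in 6 of 17 alternatives, among them DESeq2 (adjusted p = 0.00126), without control replicate 1 (adjusted p = 0.0498) and without control replicate 3 (adjusted p = 0.00816).

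Downstream, Jak2 rose with D-gal/LPS and Stat3 mRNA did not pass the test. Jak2, the gene of a kinase that many cytokine receptors use, measured 94.3, 84.5 and 80.7 CPM in D-gal/LPS liver samples and 13.2, 13.5 and 11.7 CPM in control liver samples (log2 fold change 2.76 ± 0.11, edgeR adjusted p = 1.09e-10). With WZB it measured 38.6, 36.7 and 41.4 CPM, between the other groups and apart from both. That was 44.9% of the D-gal/LPS level (log2 fold change -1.15 ± 0.10, edgeR adjusted p = 7.26e-06) and still above control (1.60 ± 0.10, edgeR adjusted p = 3.29e-08).

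Stat3 measured 122, 112 and 125 CPM in D-gal/LPS liver samples and 146, 110 and 131 CPM in control liver samples, with overlap. The log2 fold change was -0.11 ± 0.10 (edgeR adjusted p = 0.375, unadjusted 95% interval -0.32 to 0.11). With WZB all 3 liver samples were lower, at 75.2, 79.5 and 77.5 CPM, below every D-gal/LPS and every control sample. The log2 fold change was -0.63 ± 0.10 against D-gal/LPS (edgeR adjusted p = 0.000462) and -0.73 ± 0.10 against control (edgeR adjusted p = 2.71e-05). Stat3 (chromosome 11, 100885098-100939540) overlaps the end of Stat5a on the other strand, and Stat5a held 69 to 200 counts against 1055 or more of Stat3 in each library. Jak2 lies at 29251828-29313080 on chromosome 19. Within a library, the ratio of Jak2 to Stat3 FPKM was 1.57 ± 0.12 with WZB, 2.27 ± 0.22 with D-gal/LPS and 0.316 ± 0.060 in control liver samples (SD, n = 3 each).

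Both feedback genes rose with D-gal/LPS and neither passed the test with WZB. Socs1, whose product blocks JAK kinases and is best known downstream of interferons, had 49, 57 and 73 counts in D-gal/LPS liver samples and 3, 1 and 3 counts in control liver samples. Its log2 fold change was 4.68 ± 0.51 (edgeR adjusted p = 3.44e-06). With WZB it had 51, 28 and 23 counts, or 3.61, 2.11 and 1.41 CPM, against 2.83, 3.76 and 4.31 CPM in D-gal/LPS liver samples. Replicate 1 of the WZB group lay inside the range of the D-gal/LPS liver samples and the other two lay below it. The log2 fold change of -0.62 ± 0.35 (edgeR adjusted p = 0.217) had an unadjusted 95% interval of -1.37 to 0.14, so at these counts a fall to less than 50% and no fall both lay within it.

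Socs3, whose product blocks signals from gp130, measured 156, 120 and 135 CPM in D-gal/LPS liver samples and 44.0, 32.2 and 37.5 CPM in control liver samples (log2 fold change 1.86 ± 0.12, edgeR adjusted p = 3.61e-08). With WZB it measured 107, 123 and 114 CPM and overlapped the D-gal/LPS group. It stood at 83.8% of the D-gal/LPS level, with a log2 fold change of -0.25 ± 0.12 (edgeR adjusted p = 0.135, unadjusted 95% interval -0.51 to 0.01). The call depended on 1 library and on the scaling. Without D-gal/LPS replicate 2 Socs3 fell by 0.44 (adjusted p = 0.0236), and with total-count scaling by 0.46 (adjusted p = 0.0106). Per FPKM within a library, Socs3 stood at 7.10 ± 0.31 times Stat3 with WZB, 5.48 ± 0.57 times in D-gal/LPS liver samples and 1.41 ± 0.04 times in control liver samples, with no overlap between any 2 neighbouring groups.

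The start regions of the 2 feedback genes are shown because each holds a motif that none of the other member windows held. RefSeq windows on GRCm38.p6, from 250 bases before to 50 bases after the gene start, were given for 7 of the 8 genes. They were searched on both strands for the STAT-type motif TTCNNNGAA, for the same ends spaced by 4 bases in place of 3, and for a kB-type motif of GGG and TTTCC spaced by 2 bases. An interferon-response motif of GAAA and GAAA, spaced by 2 bases, was added after the windows had been read. The Socs3 window is chr11:117969317-117969616 on the minus strand and the Socs1 window chr16:10785487-10785786 on the minus strand. Capitals mark the STAT-type match in Socs3 and the 2 overlapping interferon-type matches in Socs1, 5′ to 3′.
Socs3: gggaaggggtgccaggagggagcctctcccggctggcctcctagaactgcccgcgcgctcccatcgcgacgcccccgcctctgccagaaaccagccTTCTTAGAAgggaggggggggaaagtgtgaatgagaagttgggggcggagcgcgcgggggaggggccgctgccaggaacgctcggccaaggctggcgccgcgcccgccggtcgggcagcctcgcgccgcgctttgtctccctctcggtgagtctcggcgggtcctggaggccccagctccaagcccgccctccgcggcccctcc
Socs1: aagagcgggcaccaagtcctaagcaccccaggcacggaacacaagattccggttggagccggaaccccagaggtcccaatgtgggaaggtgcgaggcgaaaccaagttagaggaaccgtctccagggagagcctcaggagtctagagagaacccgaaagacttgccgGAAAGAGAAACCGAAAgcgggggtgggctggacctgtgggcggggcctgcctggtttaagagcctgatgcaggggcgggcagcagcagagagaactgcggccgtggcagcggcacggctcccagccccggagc
The Socs3 match, TTCTTAGAA, begins 154 bases before the start. The Socs1 matches begin 83 and 77 bases before it and share bases. TTCNNNGAA is present in 8.3% of 32851 windows of this length, the wider STAT-type motif in 6.95%, the kB-type motif in 1.63% and the interferon-type motif in 3.44%. The windows of Osmr, Lif, Lifr, Stat3 and Jak2 held none of these letters. A match describes the letters and is not a measured binding site. In the deposited table Socs3 spans 117966079-117970047 on chromosome 11 and Socs1 10783808-10785536 on chromosome 16, and the Socs3 start of the table lies upstream of the RefSeq start.

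**Figure D2:**
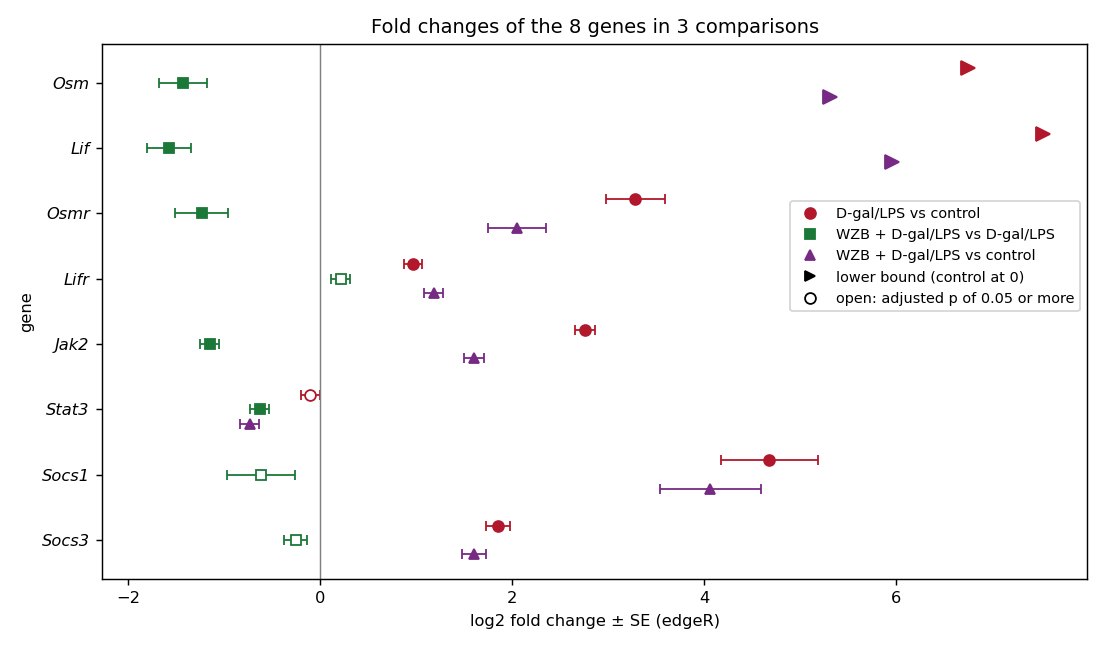
Log2 fold changes ± SE of the 8 genes are drawn for 3 comparisons, with filled symbols for an edgeR adjusted p under 0.05, open symbols otherwise, and triangles pointing right for lower bounds of Osm and Lif against control counts of 0. With WZB the ligands, Osmr and Jak2 lay between -1.58 and -1.15 against D-gal/LPS, Stat3 at -0.63, and Socs1, Socs3 and Lifr did not pass.

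Counted together, 7 of the 8 genes rose with D-gal/LPS and 0 fell by edgeR, by unadjusted p and by DESeq2, in a comparison in which 29.1% of all genes tested rose and 29.3% fell. The libraries stood apart for the same 7, all higher, beside 65.5% of all genes (32.4% higher and 33.1% lower). The median log2 fold change of the 8 genes was 3.02, beside -0.03 over all genes tested, and it does not change with Osm and Lif at their bounds. With WZB against D-gal/LPS, 5 of 8 fell (Osm, Lif, Osmr, Jak2 and Stat3) and 0 rose, where 14.7% of all genes fell and 13.8% rose. DESeq2 gave the same counts, and at an unadjusted p under 0.05 Lifr rose as well. The libraries stood apart for those 5, all lower, beside 45.3% of all genes (21.3% higher and 24.0% lower). The median was -0.89 for the 8 genes and -0.02 for all genes. The 8 genes share a pathway and were chosen with earlier results known, so these counts describe them and test nothing. The split of all genes with WZB moved with scaling, from 1873 higher and 2001 lower to 850 and 3290 with total-count scaling and 2358 and 1643 with upper quartile factors. Total-count scaling shifted the median of all genes by -0.20. The 5 falls passed under every scaling tried. Against control, WZB liver samples were higher for 7 genes and lower for Stat3 alone, beside 32.6% and 28.0% of all genes, and all 8 stood apart, beside 65.9% (35.0% higher and 30.9% lower). The log2 fold change against control was 2.05 ± 0.30 for Osmr (edgeR adjusted p = 0.000394), 4.06 ± 0.53 for Socs1 (edgeR adjusted p = 1.8e-05) and 1.60 ± 0.12 for Socs3 (edgeR adjusted p = 1.96e-07). Over all genes 4430 were higher and 3806 lower, and 3248 and 5061 with total-count scaling, which shifted the median by -0.25.

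The order of the genes by abundance, per length in FPKM, changed between groups. In the WZB liver samples Lifr was first at 39.4 ± 3.70 FPKM and Socs3 second at 31.4 ± 1.35 FPKM, with Jak2 after them at 6.97 ± 0.56 and Stat3 at 4.43 ± 0.03 FPKM. Each of these stood apart from the next. Socs1, Osmr, Osm and Lif followed between 1.76 and 0.719 FPKM and overlapped their neighbours. In D-gal/LPS liver samples Socs3 (43.1 ± 6.63 FPKM) and Lifr (39.1 ± 1.62 FPKM) overlapped at the top, and Jak2 at 17.8 ± 1.65 FPKM and Stat3 at 7.86 ± 0.63 FPKM came next. Osmr, Socs1, Osm and Lif lay between 3.77 and 2.48 FPKM, each overlapping the next. In control liver samples the order was Lifr, Socs3, Stat3, Jak2, Osmr and Socs1, at 20.8, 12.4, 8.78, 2.73, 0.400 and 0.117 FPKM, all apart from one another, with Osm and Lif listed at 0. Jak2 thus stood above Stat3 in both injured groups and below it in control liver samples. FPKM are scaled to the library total, not by TMM.

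Markers of cells that can make or answer these cytokines moved as well. Neutrophil markers summed to 242 to 266 CPM with WZB, 339 to 366 CPM in D-gal/LPS liver samples and 5.35 to 6.15 CPM in control liver samples, where Camp and Ltf were at 0. All 9 neutrophil markers tested rose with D-gal/LPS, and 5 of 9 fell with WZB. Ly6g, Cxcr2, Retnlg, Mmp8, Ngp and Ltf had at most 8 counts in any control library. They met the minimum for testing through the injured liver samples, so the filter itself favoured a rise among them. Summed monocyte and macrophage markers were 234 to 275 CPM with WZB, 387 to 389 CPM with D-gal/LPS and 49.8 to 58.3 CPM in control liver samples. Of these markers 7 of 10 fell with WZB. Over all genes tested 29.1% rose and 29.3% fell with D-gal/LPS, and 13.8% rose and 14.7% fell with WZB. The marker counts were not tested against these shares. With WZB the sums stood at 72.8% of the D-gal/LPS level for neutrophils, 65.8% for monocytes and macrophages, 60.1% for Kupffer cells, 59.3% for sinusoidal endothelium, 56.7% for stellate cells and fibroblasts and 13.6% for red blood cell genes. T, NK and B cell markers stood at 88.2%, cholangiocyte markers at 109% and hepatocyte markers at 130%. The mean sums of these other lists were also higher with D-gal/LPS than in control liver samples. Kupffer markers summed to 333 against 85.9 CPM and sinusoidal endothelium markers to 512.8 against 119.7 CPM. Stellate cell and fibroblast markers summed to 1037 against 110.2 CPM and red blood cell genes to 3913 against 127.4 CPM. Single markers within a sum differed. Of the Kupffer markers, the scavenger receptor gene Marco stood at 81.7% of its D-gal/LPS level and the other 5 at 34.9% (Timd4) to 47.4%. Of 8 markers of stellate cells and fibroblasts 5 fell with WZB, while Lrat (log2 fold change 0.70, edgeR adjusted p = 0.0375) and Des (0.59, edgeR adjusted p = 0.041) rose, and Dcn gave 345.7 CPM of that sum with WZB and 609.7 CPM with D-gal/LPS. Of 8 markers of sinusoidal endothelium 5 fell, and Kdr rose (log2 fold change 0.67, edgeR adjusted p = 0.0148).

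The ratios of member genes to the summed markers within a library describe both together. Per 100 CPM of summed neutrophil markers Osm measured 0.906, 1.02 and 0.748 CPM with WZB and 1.86, 1.55 and 1.84 CPM in D-gal/LPS liver samples. Per 100 CPM of monocyte and macrophage markers it measured 0.799, 1.16 and 0.764 CPM with WZB and 1.62, 1.41 and 1.74 CPM with D-gal/LPS. Neither pair of groups overlapped. Lif per 100 CPM of neutrophil markers was 1.38 ± 0.25 CPM with WZB and 3.01 ± 0.40 CPM with D-gal/LPS (SD, n = 3). Against Kupffer markers Lif measured 1.195, 2.606 and 1.768 CPM with WZB and 3.063, 2.867 and 3.649 CPM with D-gal/LPS, without overlap. Marco, which was not called with WZB, gave 123.4 of the mean Kupffer sum of 200.1 CPM with WZB. With D-gal/LPS it gave 151.1 of 333 CPM. The Kupffer ratios thus lean on this gene, and ratios to the other Kupffer markers alone are not given. Socs3 per 100 CPM of neutrophil markers overlapped, at 43.5 to 46.5 CPM with WZB and 33.9 to 46.0 CPM with D-gal/LPS. It also overlapped against monocyte and macrophage markers, at 39.0 to 52.75 CPM with WZB and 30.8 to 40.3 CPM with D-gal/LPS. Per 100 CPM of Kupffer markers Socs3 measured 46.4, 73.6 and 56.7 CPM with WZB and 42.9, 38.1 and 42.2 CPM with D-gal/LPS, without overlap. Several single markers stood about as low with WZB as Osm at 37.2% and Lif at 33.6%. Among them were Timd4 at 34.9%, the neutrophil granule gene Ltf at 36.0% and Clec4f at 39.9%. The neutrophil markers differed: 5 fell and 4 were not called, namely Ly6g at 96.1%, S100a9 at 86.7%, S100a8 at 80.7% and Cxcr2 at 80.6%. The part of these cell types in the results of the 8 genes was not tested.

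**Figure D3:**
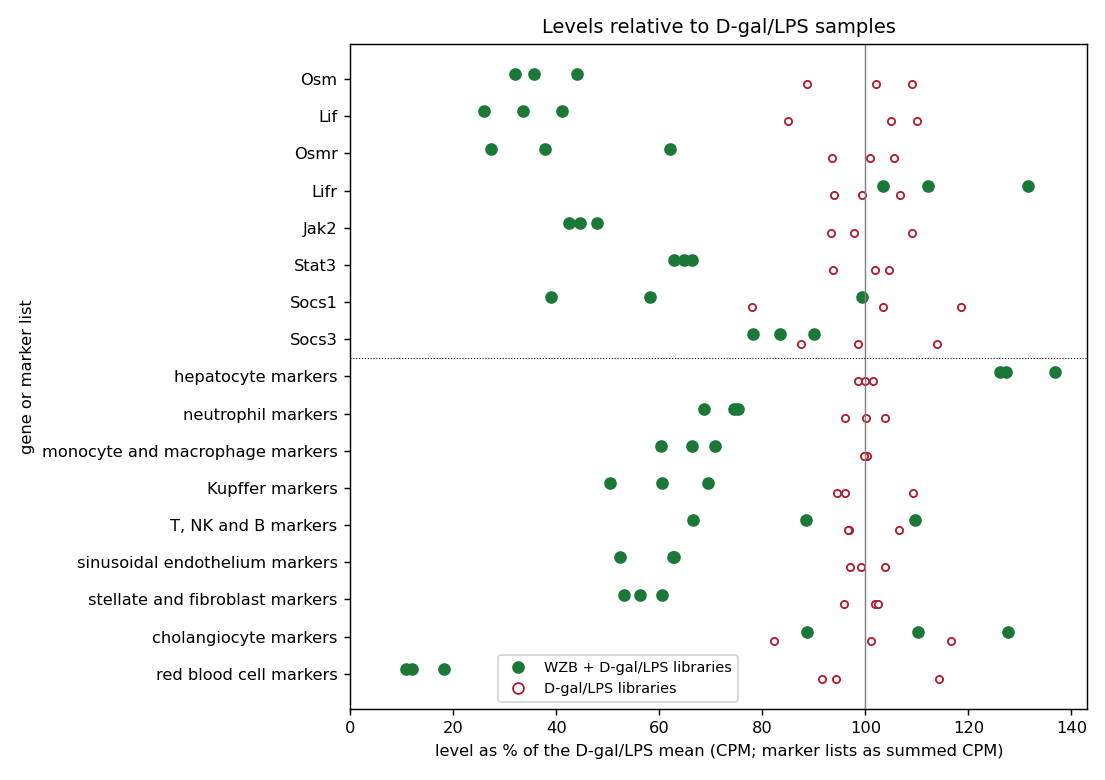
Each WZB library (filled) and D-gal/LPS library (open) is placed at its level in percent of the D-gal/LPS mean, for the 8 genes above the dotted line and for summed markers of 9 cell types below it. Lif, Osm, Osmr and Jak2 averaged 33.6% to 44.9%, and the neutrophil, macrophage, Kupffer, endothelial and stellate sums 56.7% to 72.8%. The tested markers in these sums reached as low as 34.9% (Timd4). Camp, with too few counts to be tested, stood at 22.9%.

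Among other cytokines of the family, Il6, Il27 and Ebi3 rose with D-gal/LPS and fell with WZB. Of 8 ligand genes 6 could be tested, and with D-gal/LPS Il6, Il27, Ebi3 and Clcf1 rose and Cntf fell. Il6, Il27 and Ebi3 had at most 10 counts in any control library and met the minimum for testing through injured liver samples. Il27 met it through the D-gal/LPS liver samples alone. The filter thus favoured a rise of these genes with D-gal/LPS, and for Il27 also a fall with WZB. Over all genes tested 29.1% rose and 29.3% fell with D-gal/LPS, and 13.8% rose and 14.7% fell with WZB. The counts of this list and of the lists below were not tested against these shares. Il6, the prototype of the family, had 18, 25 and 19 counts with WZB, 81, 119 and 97 counts with D-gal/LPS and 6, 1 and 3 counts in control liver samples. It rose with D-gal/LPS (log2 fold change 4.92 ± 0.44, edgeR adjusted p = 5.75e-07) and fell with WZB (-2.08 ± 0.34, edgeR adjusted p = 0.000589). Its rise was 5.67 without control replicate 1. Il27 and Ebi3 encode the subunits of interleukin-27. Il27 had 7, 8 and 9 counts with WZB against 79, 51 and 76 with D-gal/LPS and 2, 0 and 0 in control liver samples. It rose with D-gal/LPS (edgeR adjusted p = 6.89e-07), as did Ebi3 (log2 fold change 5.47 ± 0.32, edgeR adjusted p = 7.18e-09). The rise of Ebi3 was 6.19 without control replicate 3. Il27 fell with WZB (-2.90 ± 0.41, edgeR adjusted p = 0.000216), and so did Ebi3 (-1.37 ± 0.23, edgeR adjusted p = 0.00064). Clcf1 rose with D-gal/LPS (1.82 ± 0.23, edgeR adjusted p = 1.66e-05) and had a log2 fold change of -0.24 ± 0.21 with WZB (edgeR adjusted p = 0.449). Cntf, the ciliary neurotrophic factor, fell with D-gal/LPS (-1.86 ± 0.56, edgeR adjusted p = 0.0111), a call lost without D-gal/LPS replicate 1 (adjusted p = 0.0528) or replicate 3 (adjusted p = 0.0525), while without replicate 2 the log2 fold change was -2.85.

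Among 5 tested receptor genes of the family, Il6st, Cntfr and Il27ra rose with D-gal/LPS and 0 fell, and with WZB 0 passed the test in either direction by edgeR. At an unadjusted p under 0.05 with WZB, 1 was higher and 2 were lower, and DESeq2 called 1 lower. Cntfr rose by 1.53 ± 0.24 (edgeR adjusted p = 9.75e-05) and Il27ra by 2.34 ± 0.44 (edgeR adjusted p = 0.000483). Il11ra1, a receptor of interleukin-11, had a log2 fold change of 0.37 ± 0.13 with WZB (edgeR adjusted p = 0.0542). Il6ra, the interleukin-6 receptor of hepatocytes, had log2 fold changes of -0.22 ± 0.15 with D-gal/LPS and 0.23 ± 0.15 with WZB, neither called.

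Among other JAK and STAT genes, Jak1, Stat4 and Stat6 rose with D-gal/LPS. Jak1, the principal kinase of gp130, rose by 0.78 ± 0.08 with D-gal/LPS (edgeR adjusted p = 1.09e-06) and fell with WZB (-0.68 ± 0.08, edgeR adjusted p = 3.78e-05). Stat2, a factor of interferon signalling, resembled Stat3: its log2 fold change was -0.09 ± 0.09 with D-gal/LPS (edgeR adjusted p = 0.443), while it was -0.84 ± 0.10 with WZB (edgeR adjusted p = 4.47e-05). Stat6 also fell with WZB (-0.35 ± 0.10, edgeR adjusted p = 0.0146), a call lost without WZB replicate 2 (-0.28, adjusted p = 0.0633).

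Of 6 other SOCS family genes, Socs5 rose (1.56 ± 0.20, edgeR adjusted p = 1.99e-05) and Socs7 fell (-0.42 ± 0.16, edgeR adjusted p = 0.0336) with D-gal/LPS, and the call of Socs7 was lost in 4 of 9 fits without 1 library (adjusted p = 0.0542 to 0.13). Cish and Socs2, feedback genes of STAT5, had log2 fold changes of -0.20 and -0.09. With WZB 0 of the 6 passed by edgeR, by unadjusted p or by DESeq2, with log2 fold changes between -0.25 (Socs4, edgeR adjusted p = 0.162) and -0.06. Socs4 fell with total-count scaling (-0.44, adjusted p = 0.0192). Among 8 PIAS and phosphatase genes, Ptpn1, Ptpn6 and Ptpn11 rose with D-gal/LPS while Pias3 and Pias4 fell (Pias4 -1.49 ± 0.21, edgeR adjusted p = 4.22e-05). With WZB 4 of the 8 fell and 0 rose, where 14.7% of all genes tested fell and 13.8% rose. With D-gal/LPS 29.1% of all genes tested rose and 29.3% fell. Neither count of this list was tested against these shares. Ptpn6, the gene of the leukocyte phosphatase SHP-1, rose by 1.87 ± 0.10 (edgeR adjusted p = 2.47e-09) and fell with WZB (-0.60 ± 0.10, edgeR adjusted p = 0.000475). Ptpn1, whose product dephosphorylates JAK2, rose by 1.34 ± 0.10 (edgeR adjusted p = 8.74e-08) and fell with WZB (-0.81 ± 0.10, edgeR adjusted p = 7e-05). Pias1 fell with WZB too (-0.66 ± 0.14, edgeR adjusted p = 0.00389). So did Ptpn2, a call lost without D-gal/LPS replicate 1 (adjusted p = 0.055).

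Genes that STAT3 is known to drive fell into 2 patterns. Of 12 regulators, 9 rose with D-gal/LPS and Bcl3 and Cebpb fell, with a median of 1.92. Fos, an immediate early gene, rose by 5.25 ± 0.18 (edgeR adjusted p = 1.67e-10), Timp1, a protease inhibitor induced by oncostatin M, by 4.46 ± 0.24 (edgeR adjusted p = 2.84e-09) and Cebpd, a partner of acute phase induction, by 2.77 ± 0.15 (edgeR adjusted p = 2.66e-09). With WZB 9 of the 12 fell and 0 rose, by edgeR, by unadjusted p and by DESeq2 alike. Among them were Hif1a, a transcription factor of the hypoxia response (-1.21 ± 0.14, edgeR adjusted p = 4.47e-05), Il4ra, a cytokine receptor chain (-0.93 ± 0.11, edgeR adjusted p = 7e-05), and Pim1, a kinase (-0.57 ± 0.09, edgeR adjusted p = 0.000492). Junb and Myc had log2 fold changes of -0.16 ± 0.10 and -0.32 ± 0.18 with WZB, neither called. The fall of Timp1 with WZB was lost without D-gal/LPS replicate 3 (adjusted p = 0.0738) or WZB replicate 3 (adjusted p = 0.0583). The calls of Cebpb were lost in 6 of 9 fits without 1 library for D-gal/LPS against control (adjusted p = 0.0501 to 0.0941) and in 7 of 9 for WZB against D-gal/LPS (adjusted p = 0.0505 to 0.147). Many of these genes also answer to other signals.

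The acute phase genes showed no rise that passed the test. With D-gal/LPS the median over all genes tested was -0.03, and 29.1% rose and 29.3% fell by edgeR. The median of the 14 acute phase genes was -0.44, and 0 rose and 7 fell by edgeR, by unadjusted p and by DESeq2. Those that fell included Serpina3n, a protease inhibitor (-1.57 ± 0.08, edgeR adjusted p = 9.71e-10), Hamp, the gene of the iron hormone hepcidin (-2.71 ± 0.30, edgeR adjusted p = 0.00016), and Fgb, a fibrinogen chain (-0.50 ± 0.09, edgeR adjusted p = 0.000215). With WZB against D-gal/LPS 6 of 14 fell and 0 rose by edgeR, and 8 fell and 0 rose both at an unadjusted p under 0.05 and by DESeq2. Among the 6 were Lcn2, which binds bacterial siderophores (-1.01 ± 0.12, edgeR adjusted p = 9.85e-05), Steap4, a metal reductase (-0.85 ± 0.12, edgeR adjusted p = 0.00019), and Lbp, the LPS-binding protein (-0.54 ± 0.09, edgeR adjusted p = 0.000808). Lcn2 and Steap4 had log2 fold changes of -0.01 and -0.22 with D-gal/LPS, neither called. In the same D-gal/LPS liver samples Socs3 was higher than in control liver samples, as given with its values.

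Replicate 2 of the D-gal/LPS group was the lowest of its group for 12 of the 14 acute phase genes and for 5 of the 8 pathway genes (Osm, Lif, Osmr, Stat3 and Socs3). Saa1, a serum amyloid gene, had 648, 464 and 1057 counts with WZB, 12741, 1009 and 6057 in the D-gal/LPS libraries and 20634 to 21302 in control libraries. Its difference with WZB passed the test narrowly (log2 fold change -2.99 ± 0.83, edgeR adjusted p = 0.0402), and in 8 of 9 fits without 1 library it did not (adjusted p = 0.0639 to 0.128). Without D-gal/LPS replicate 2 the log2 fold change was -3.59 (adjusted p = 0.00245), and without replicate 1 it was -2.12 (adjusted p = 0.105). Saa2, a near-identical copy whose reads may be shared with Saa1, had 292, 333 and 506 counts with WZB and 16278, 441 and 7006 counts with D-gal/LPS, and the groups overlapped. Its difference with WZB was -4.17 ± 1.15 (edgeR adjusted p = 0.0401), and in 8 of 9 fits without 1 library it did not pass (adjusted p = 0.063 to 0.124). Without D-gal/LPS replicate 1 it was -3.11 (adjusted p = 0.105), and without replicate 2 it was -4.82 (adjusted p = 0.00127). Hp, the haptoglobin gene, fell with WZB (-0.66 ± 0.17, edgeR adjusted p = 0.0141).

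**Figure D4:**
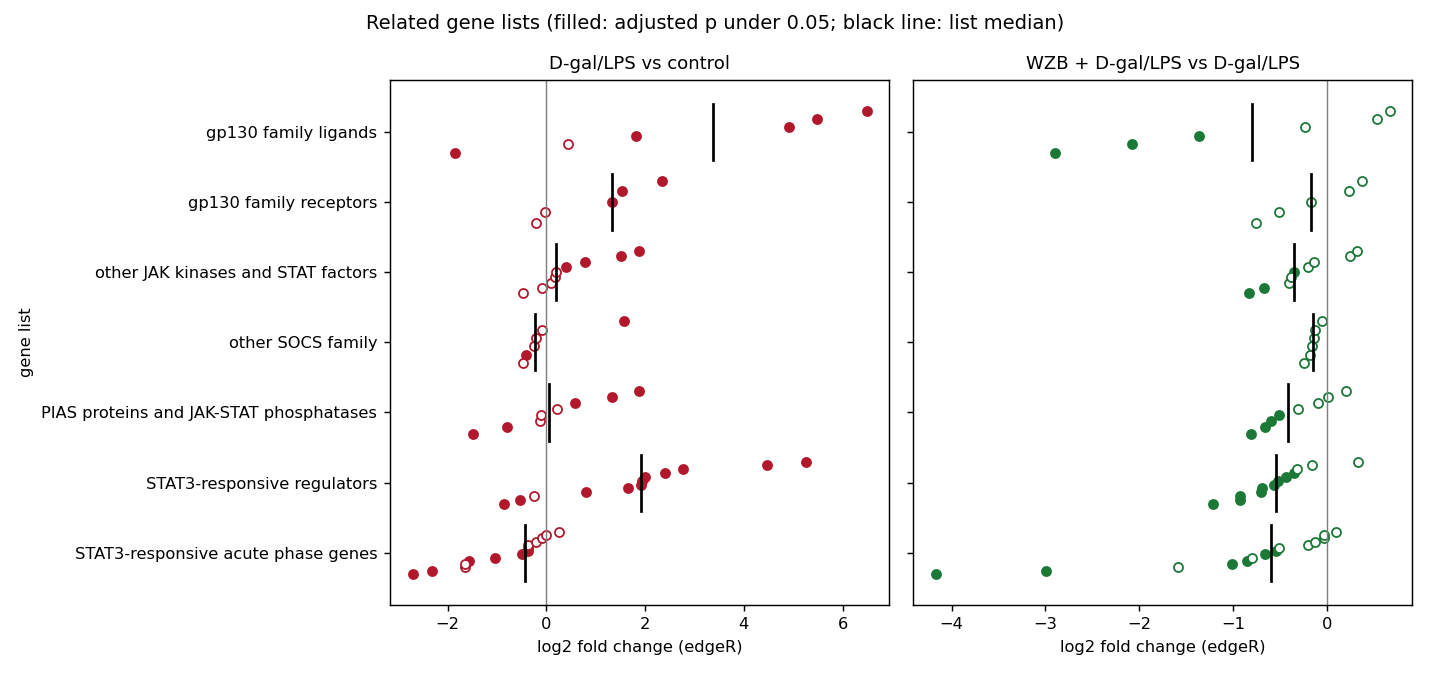
Each point is 1 tested gene of 7 related lists, placed at its log2 fold change with D-gal/LPS against control (left) and with WZB and D-gal/LPS against D-gal/LPS (right), filled where the edgeR adjusted p was under 0.05, with the list median as a black line. STAT3-responsive regulators had a median of 1.92 and acute phase genes of -0.44 with D-gal/LPS, and -0.55 and -0.60 with WZB.

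For each of the 8 genes, the genes with the most similar course over the 9 libraries were sought among 8923 or 8924 others. The measure was the root mean square difference of mean-centred log2 CPM, with a prior count of 2. That prior sets the control values of Osm and Lif, which had 0 counts, so their neighbours depend on it. Nearest to Osm were Nr4a1, an immediate early nuclear receptor, and Cd274, the gene of PD-L1 (both 0.22). Nearest to Lif were Serpina3f and Oas3 (both 0.23). With D-gal/LPS the log2 fold changes were 5.73 for Nr4a1, 5.60 for Cd274, 6.69 for Serpina3f and 6.37 for Oas3. These rises were smaller than the lower bounds of Osm (107-fold) and Lif (184-fold). Nearest to Osmr were Gab2, a signalling adaptor, and Arhgap31 (0.20 and 0.21). Jak2 was closest to Spred1, a restraint on RAS signalling (0.08), then Stk17b (0.10). Lifr was closest to Laptm4a and Rnf130 (0.08 and 0.09), and Stat3 to Traf2, an adaptor of TNF receptors, and Eif6 (0.08 and 0.09). Socs3 was closest to Chsy1 (0.08) and to the early gene Ier2 (0.12). The genes nearest to Socs1, Spi1, which encodes the myeloid transcription factor PU.1, and Postn, stood farther off (both 0.35).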

How the data were processed

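Messenger RNA was sequenced from 9 mouse liver samples. The deposited table gives a whole-number read count and an FPKM value (reads scaled by gene length and library total), which were proportional within 0.01 in all 18345 genes compared. The submitters' processing notes name GRCm38.p4, mm10, R 4.1.2 and limma. Aligner, counting program, annotation release and strandedness are named in none of the sources used here. Of 21 value columns, 3 matched no labelled sample and were left out.

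Deposited counts entered edgeR's quasi-likelihood test (edgeR 4.0.16, R 4.3.3). After filterByExpr 13583 genes remained, with 99.93% of reads. Libraries were scaled by TMM, and 1 robust fit took all 9 libraries in 3 groups, leaving 6 residual degrees of freedom. Benjamini-Hochberg adjustment ran over all genes tested, and a call needs an adjusted p under 0.05. SE is the size of the log2 fold change over the root of its F statistic. Deposited FPKM were used for levels between genes and for ratios within a library. Folds against 0 control counts were bounded with 3 counts over the control group. No 2 libraries were identical, and replicates differed beyond counting noise (chi-square per gene 13.89 to 31.78). The fit was tested on simulated data in which most genes were unchanged, unlike these data, so that test does not check the scaling.

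The 8 genes and the related lists were chosen with earlier results of these data known. The rule for named genes took, of each list, the 3 with the smallest adjusted p in each of the first 2 comparisons, then Il6 and Il6st, and for each of the 8 genes the 2 most similar genes with a mean of at least 5 CPM. Other list genes and the ratios were chosen after their values were seen. A gene of the related lists is not reported here. Alternatives were a replicate block, 3 other scalings, no filter, at least 5 CPM in 3 libraries, DESeq2 1.42.0, fits of 2 groups, and leaving out each library in turn.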

Additional observations from a re-analysis of the deposited data

How the results depend on the processing

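Across all alternatives no direction reversed. With D-gal/LPS against control, 7 of the 8 genes were called higher in every alternative but the filter of 5 CPM in 3 libraries, which removed Socs1 and left 6. With WZB against D-gal/LPS, Osm, Lif, Osmr, Jak2 and Stat3 fell in every alternative. The count of genes higher with WZB was 1 in place of 0 with upper quartile factors (Lifr) and 0 to 1 without 1 library. Among the related lists it was 1 in place of 0 with upper quartile factors and 1 with the replicate block (both Il11ra1), and 0 to 1 without 1 library. The count of list genes lower with WZB was 25 and ran from 21 without 1 library to 34 with total-count scaling. Socs3 passed with at least 5 CPM in 3 libraries (adjusted p = 0.0474) and in the 2 cases given with its values.

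Same-numbered libraries of different groups had correlations of their deviations between -0.111 and 0.07. Libraries with different numbers reached 0.156 (D-gal/LPS replicate 3 with control replicate 1). No pairing by number was seen, but with 3 libraries a group and no label on pairing these values cannot decide it. With the replicate block the calls of the 8 genes were unchanged in number (7 higher with D-gal/LPS, 5 lower with WZB, and 7 higher and 1 lower for WZB against control), and list genes lower with WZB numbered 23: Hp, Saa1 and Saa2 were lost (adjusted p = 0.0582, 0.0917 and 0.127) and Hamp was gained (adjusted p = 0.00336).

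Low counts limit Socs1, Osm and Lif, and 3 libraries a group limit every interval.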
